A study of Rattus norvegicus with 8 samples.

Results

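The cytosolic ribosomal protein genes of the rat hypothalamus were described in 8 libraries, 4 from rats with diet-induced obesity and 4 from control rats. The members were the protein-coding genes of the table whose symbol begins with Rpl or Rps and a digit, together with Rpsa, with the ribosomal S6 kinases (Rps6k) left out. This rule found 55 of the 12255 genes and 81 of the 73922 polyadenylation sites. Of the 55 genes, 31 encode large-subunit proteins, 17 encode small-subunit proteins, 6 are paralogs (Rpl10l, Rpl22l1, Rpl36al, Rpl7l1, Rps10l1 and Rps4y2), and 1, Rps19bp1, is a binding partner of a ribosomal protein rather than a subunit. Subunit genes outside these 48 were not analysed here.

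All rats were adult Long-Evans males. Control rats ate standard chow, whereas obesity rats had free access to a diet high in fat, and tissue was taken from both after 36 days. Obesity is the name the labels give to the high-fat group, and each library came from 1 rat. Libraries were made by WTTS-seq, which reads the 3′ ends of polyadenylated RNA, so that a transcript gives about the same number of reads whatever its length. Depth ranged from 1417531 to 1957726 reads per library. Of 15 hypothalamic markers, 14 were measured, with a summed abundance of 1366 to 1994 CPM in control and 1168 to 1493 CPM in obesity. CPM are reads per 1000000 reads of a library, scaled by edgeR's TMM normalization.

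Each ribosome is built from ribosomal RNA and about one copy of every ribosomal protein, so these genes are usually transcribed in step. Their messenger RNAs are among the most abundant of a growing cell, and in neurons they also serve the protein synthesis of dendrites and axons. They begin with a 5′ terminal oligopyrimidine (TOP) tract, an unbroken stretch of C and T, through which the mTOR kinase and the RNA-binding protein Larp1 set their translation and their stability with nutrient supply.

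The start of the transcript is shown first, because this tract is a common feature of the family at the RNA level, though not of this family alone. The RefSeq promoter table (build GRCr8, not the Rnor_6.0 build of the reads) held 42 of the 55 genes. The 30-base windows below hold the 15 bases before the annotated start followed by the 15 bases from it onwards, read 5′ to 3′ on the gene's strand. Capitals mark runs of 5 or more C or T. The first 4 are abundant members or members with a small p described below, the fifth to the seventh have long tracts, and the last 2 have no run at the start.
Rpl13 (chr19:68062499-68062528, plus strand): ctttgcggtgcccgaTCCTTTCCgctcggc
Rpl35 (chr3:43165907-43165936, minus strand): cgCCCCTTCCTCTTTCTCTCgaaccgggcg
Rpl37a (chr9:81748076-81748105, plus strand): gcatgcccgttgcgTCTCTTCCTCTTCggg
Rpl27a (chr1:172974558-172974587, plus strand): cgagacttggtgggCTCCTCCCTCTTTCTT
Rps24 (chr16:96502-96531, plus strand): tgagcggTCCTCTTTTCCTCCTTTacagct
Rpl34 (chr2:221962269-221962298, minus strand): CCCCTTCCTTTTCCTCTTCCggggacggtg
Rps14 (chr18:56498245-56498274, plus strand): CCCTTCCgTCTCTCTCTTTCCggtggagga
Rpl41 (chr7:1563483-1563512, minus strand): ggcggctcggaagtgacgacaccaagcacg
Rps19bp1 (chr7:113693009-113693038, minus strand): cagcgtgtgggcggggcttggcagcatgtc

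A run of 5 or more C or T that touched 1 of the first 3 bases from the start was found in 29 of the 42 windows (69.0%), against 16.1% of all 33469 promoters of the same length. Runs of 8 or more C or T anywhere in the window were found in 31 members (73.8%), against 11.45% of all promoters. On the other strand, where such a run reads as A and G, 1 member (2.38%) held one, against 13.0% of all promoters. The letters CTTTC, which can lie inside these runs, were in 21 members (50%) and in 3.585% of all promoters, and on the other strand (GAAAG) in 0 members and 3.82% of all promoters. These are matches of letters at annotated starts, not mapped starts of the transcripts in these libraries.

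The 55 genes spanned a wide range of abundance. Together they held 62192 reads, 0.466% of all reads, and the 10 most abundant members held 76.3% of these. Mean abundance was 815 CPM for Rpl13 and 593 CPM for Rpl35, and 2.40 CPM for Rpl26, although these proteins are present once per ribosome. The median member lay at 21.2 CPM, close to the median of all genes at 20.5 CPM, and 13 members reached 100 CPM. At the low end, 20 members were under 10 CPM, 19 had fewer than 100 reads over the 8 libraries, and 8 had no read in at least 1 library.

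**Figure D1:**
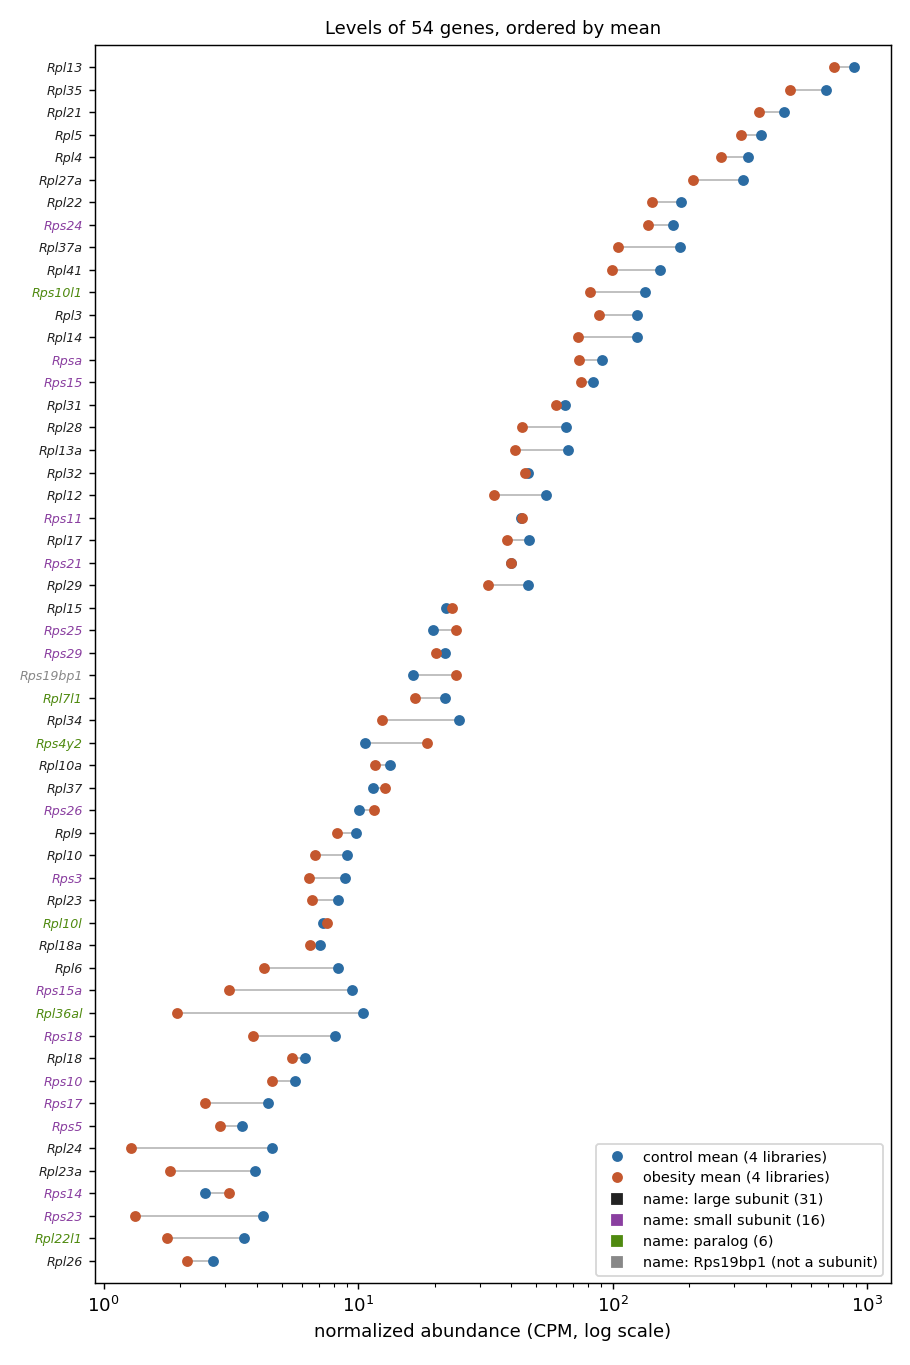
Mean normalized abundance of 54 of the genes in CPM on a log axis, with 1 point for the control mean and 1 for the obesity mean (4 libraries each) and genes ordered by their mean over all libraries. The order runs from Rpl13 at 815 CPM to Rpl26 at 2.40 CPM, and the obesity point lies to the left of the control point for most genes.

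Reads of these genes are easily shared with copies. Every one of the 48 subunit genes has at least 1 copy with the same root name in the RefSeq gene table, with a median of 14 and up to 27 for Rpl9, and the counting of reads that fit several copies is not given in the sources used here. The level of any single member is therefore uncertain where a copy can take its reads or add to them.

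The first comparison asked whether the share of reads at these genes differed between obesity and control. It was 0.486%, 0.489%, 0.683% and 0.521% for the control libraries, in the order of their numbers. For the obesity libraries it was 0.344%, 0.574%, 0.416% and 0.289%. Obesity libraries 1, 3 and 4 lay below all 4 control libraries, and obesity library 2 lay above 3 of them. The control mean of 0.545% ± 0.0935 compared with an obesity mean of 0.406% ± 0.124 (SD, n = 4). The means differed by -0.139 percentage points, and by -0.195 without obesity library 2. The 95% Wilson intervals of the libraries were at most 0.669% to 0.696% (control 3) and cover counting error only, so the spread between rats was far larger than the counting error.

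The control share was 0.383% ± 0.0642 for large-subunit genes, against 0.281% ± 0.0883 under obesity. For small-subunit genes the values were 0.144% ± 0.0397 and 0.112% ± 0.0394. The share of reads from the mitochondrial chromosome moved with these values. It was 5.32%, 5.94%, 8.27% and 6.23% in control and 4.29%, 6.99%, 3.85% and 4.34% in obesity, again highest in control 3 and, among obesity libraries, in obesity 2. Its part in the result was not tested. In a piece of tissue, fewer cells of a type and less RNA per cell cannot be told apart.

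**Figure D2:**
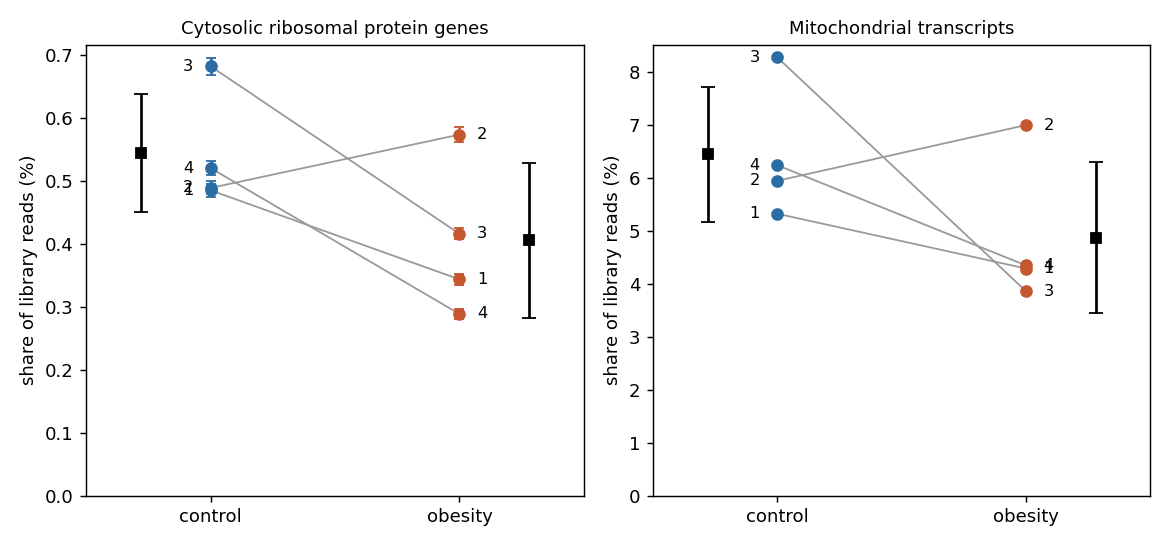
Share of library reads in percent at the 55 ribosomal protein genes (left) and at the mitochondrial chromosome (right), with 1 numbered point per library, lines joining the libraries with the same number, Wilson 95% intervals on the left, and black squares for the group mean ± SD. In both panels pairs 1, 3 and 4 go down from control to obesity and pair 2 goes up.

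Libraries of the 2 groups with the same number resembled each other, and the pairs differed in direction. In pairs 1, 3 and 4, 38, 47 and 45 of the 55 genes were lower in the obesity library, and in pair 2 only 18 were. Among the 35 members at 10 CPM or more, 65.7%, 17.1%, 88.6% and 82.9% were lower in pairs 1 to 4, while all genes at that level stood between 49.5% and 50.5% in each pair. The median log2 difference of these 35 members was -0.32 in pair 1, 0.23 in pair 2, -0.74 in pair 3 and -0.78 in pair 4. Control 3 was the highest library for 21 of the 55 genes, obesity 2 for 11, and obesity 4 was the lowest for 20. In all, 9 genes were lower in 4 of 4 pairs, 26 in 3, 15 in 2, 4 in 1, and Rps19bp1 in none.

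At the gene level, 46 of the 55 log2 fold changes were below 0 (83.6%), against 49.2% of all genes, with a median of -0.36 for the members and 0.01 for all genes. With the replicate number as a block the median was -0.51, and without obesity library 2 it was -0.65. The median was -0.38 in the large subunit (29 of 31 below 0), -0.30 in the small subunit (13 of 17) and -0.57 among the paralogs (4 of 6). The 35 members at 10 CPM or more had a median of -0.32 (28 below 0) and the 20 below that level had -0.45 (18 below 0).

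No single member passed the threshold of an adjusted p of 0.1. Without the block 0 of 12255 genes passed (0.0%, edgeR), and the lowest adjusted p of a member was 0.904. With the block 15 genes passed (0.122%), of which 0 were members, and the lowest member was Rpl37a at 0.114. At an unadjusted p under 0.05, 7 members were lower and 0 higher, against 2.52% of all genes lower and 2.77% higher. With the block 17 members were lower and 0 higher, against 5.83% of all genes lower, and the first 7 were all among the 17. DESeq2 without the block called 0 members, with 7 at an unadjusted p under 0.05. The 7 of the edgeR fit became 3 without control library 3, 2 without obesity library 4 and 10 without control library 2. They became 2 when each gene was counted by its most abundant site. The shares of all genes in these alternatives and in DESeq2 are not given here. Of the 55 members, 42 passed edgeR's filter on low counts, which was not used for these values.

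Rpl12 was the only 1 of the 55 members whose groups did not overlap. This is close to the share of all genes with every obesity library below every control library (1.67%), so it is no result about the members as a set. The abundance of Rpl12 was 50.2, 43.9, 78.3 and 46.1 CPM in control and 29.7, 43.7, 39.6 and 23.8 CPM in obesity, with obesity 2 just under control 2. Obesity libraries 1, 3 and 4 were all below all control libraries for 13 members, against 5.62% of all genes, a count made after obesity 2 was seen to stand apart. Without obesity 2, 19 members were lower at an unadjusted p under 0.05, against 5.72% of all genes, and 0 passed the adjusted threshold.

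Pair 2 decided the number of calls with the block. When it was left out, 14 members passed the adjusted threshold, all lower in obesity, against 2.66% of all genes. Among them were Rpl13, Rpl35, Rpl21, Rpl5, Rpl4, Rpl27a, Rpl22, Rpl37a, Rpl41, Rps10l1, Rpl3, Rpl14 and Rpl13a. The DESeq2 Wald test with the block and all 4 pairs called 3 members lower, Rpl37a (adjusted p 0.0388), Rpl27a (0.0506) and Rps10l1 (0.0696), against 0.694% of all genes. At an unadjusted p under 0.05, the block fit with all 4 pairs had 17 lower members, against 5.83% of all genes. The 17 became 22 without pair 2, 13 without pair 1, 6 without pair 3 and 6 without pair 4. The shares of all genes at this level with a pair left out are not given here, so these counts have no background beside them. These fits were chosen after the data were seen.

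**Figure D3:**
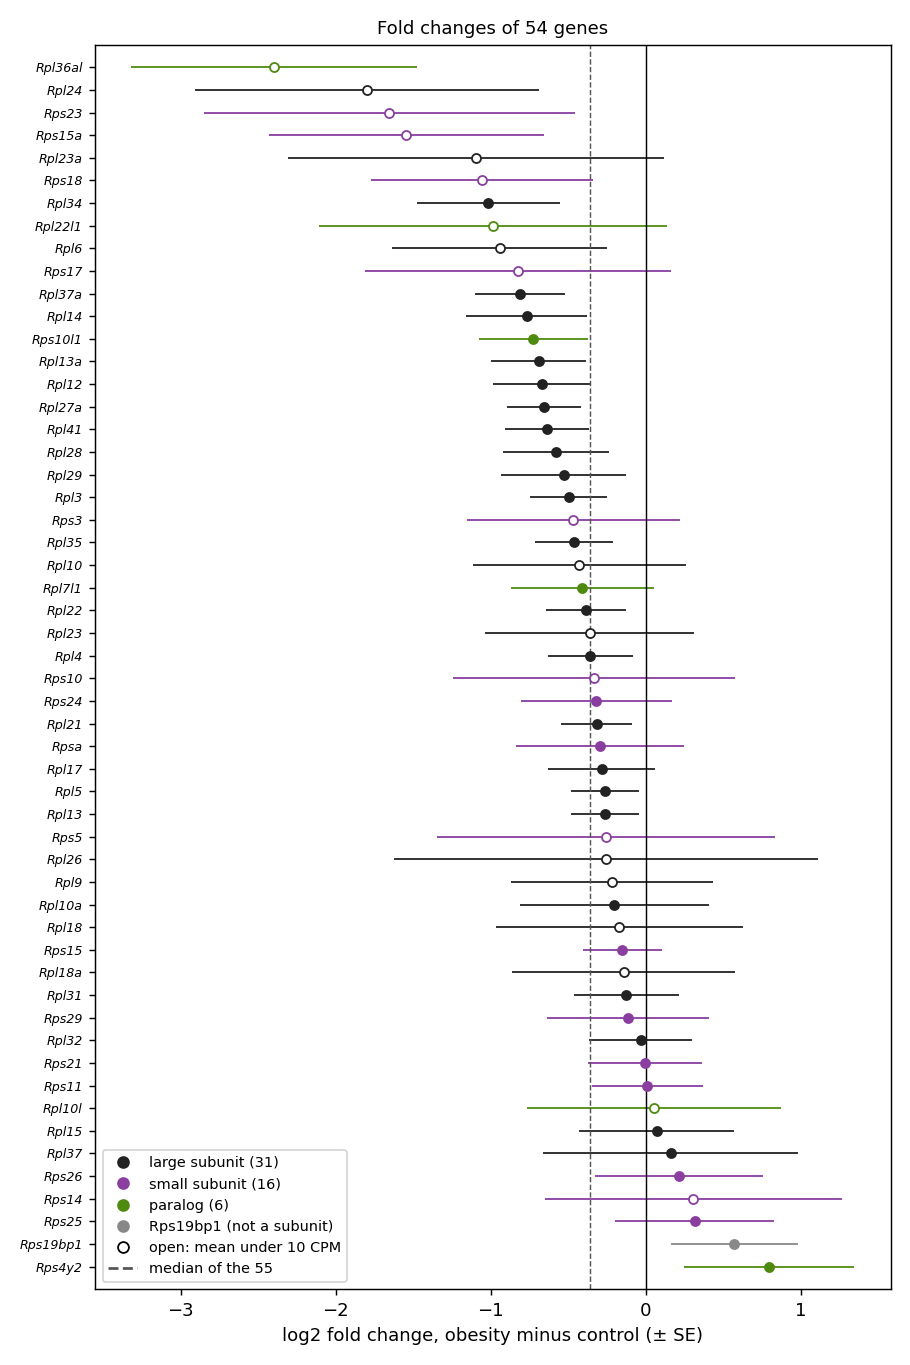
Log2 fold change of 54 of the genes, obesity minus control, from the edgeR fit without the block, with bars for ± 1 SE, open circles for genes under 10 CPM and a dashed line at the median of all 55. Of the 54 points, 45 lie below 0, the median is -0.36, and the widest bars belong to the open circles.

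Among large-subunit genes, Rpl37a had the smallest p. It encodes a zinc-binding protein of the large subunit. Its abundance was 165, 168, 236 and 164 CPM in control and 80.9, 187, 75.3 and 74.7 CPM in obesity. Obesity 1, 3 and 4 lay well below all control libraries, and obesity 2 lay above 3 of them. The log2 fold change was -0.81 (SE 0.29, edgeR unadjusted p 0.0123, adjusted p 0.904), and -1.26 without obesity 2 (adjusted p 0.19).

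Rpl27a, a component of the large subunit, was lower in 4 of 4 pairs. It was 358, 230 (control 2), 446 and 266 CPM in control and 241, 228, 211 and 144 CPM in obesity, so the groups overlapped only at control 2 and obesity 1. The log2 fold change was -0.66 (SE 0.24, edgeR adjusted p 0.904).

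Rpl41 encodes the smallest protein of the ribosome. Its abundance was 149, 143, 193 and 132 CPM in control and 107, 154, 65.7 and 70.0 CPM in obesity. Obesity 2 was again inside the control range. The log2 fold change was -0.64 (SE 0.27).

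Rpl13a, which has a second role in silencing inflammatory messenger RNAs after it leaves the ribosome, was 62.2, 52.9, 93.9 and 57.3 CPM in control and 37.9, 54.8, 47.6 and 24.5 CPM in obesity. The groups overlapped only at obesity 2. The log2 fold change was -0.69 (SE 0.31). The lowest log2 fold change among large-subunit genes at 10 CPM or more was -1.01 for Rpl34 (SE 0.46), with 24.9 ± 7.88 CPM for control and 12.4 ± 6.32 CPM for obesity (SD, n = 4).

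The 3 most abundant large-subunit genes had smaller differences. Rpl13 was 1009, 833, 870 (control 3) and 845 CPM in control and 869, 1006, 602 and 490 CPM in obesity. Obesity 1 and 2 lay within the control range and obesity 3 and 4 below it, with a log2 fold change of -0.26 (SE 0.22), which was -0.46 without obesity 2 and -0.11 without obesity 4. Rpl35, which sits at the exit of the peptide tunnel, was 840, 471, 862 and 576 CPM in control and 483, 702, 493 and 317 CPM in obesity, a log2 fold change of -0.46 (SE 0.25), or -0.30 without obesity 4. Control 1 and 3 stood above the rest.

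Rpl21 was 376, 461, 564 and 477 CPM in control and 393, 534, 316 and 264 CPM in obesity, a log2 fold change of -0.32 (SE 0.23), which was -0.55 without obesity 2 and -0.18 without obesity 4. Here pairs 1 and 2 were higher in obesity and pairs 3 and 4 lower.

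None of the 17 small-subunit genes was at an unadjusted p under 0.05 without the block. Rps24, a small-subunit gene mutated in Diamond-Blackfan anaemia, varied mainly between pairs. It was 69.2, 145, 332 and 144 CPM in control and 58.7, 133, 240.1 and 119 CPM in obesity. Both libraries numbered 1 were the lowest of their group and both numbered 3 the highest, and the obesity library was the lower one in every pair. The log2 fold change was -0.32 with an SE of 0.49 without the block and -0.28 with an SE of 0.17 with it (adjusted p 0.586).

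Rpsa, whose protein is also known as a precursor of the laminin receptor, had the same kind of spread. It was 26.9, 112, 82.2 and 142 CPM in control and 31.9, 100.1, 35.7 and 128 CPM in obesity, so that libraries numbered 1 were low and those numbered 2 and 4 high in both groups. The SE of its log2 fold change of -0.30 was 0.54 without the block and 0.24 with it.

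Of the 9 members with a log2 fold change above 0, none was at an unadjusted p under 0.05. Rps25, a small-subunit protein needed for translation from internal entry sites, was 11.3, 7.75, 19.6 and 40.2 CPM in control and 13.4, 13.5, 39.6 and 30.4 CPM in obesity, a log2 fold change of 0.32 (SE 0.51). Rps26, which contacts the messenger RNA ahead of the start codon, was 8.48, 7.75, 18.8 and 5.21 CPM in control and 8.91, 11.1, 16.99 and 9.25 CPM in obesity, a log2 fold change of 0.21 (SE 0.54). The groups overlapped for both genes.

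Rps14 had only 32 reads in all, between 2 and 6 in each library, and its log2 fold change of 0.31 had an SE of 0.96.

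Rps19bp1, which binds Rps19 and regulates the deacetylase Sirt1, was the only gene of the 55 that was higher in obesity in every pair. It was 12.01, 17.4, 21.9 and 14.1 CPM in control and 34.9, 18.3, 28.9 and 15.2 CPM in obesity. The groups overlapped at obesity 2 and 4, and the log2 fold change was 0.57 (SE 0.41, edgeR adjusted p 0.927).

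**Figure D4:**
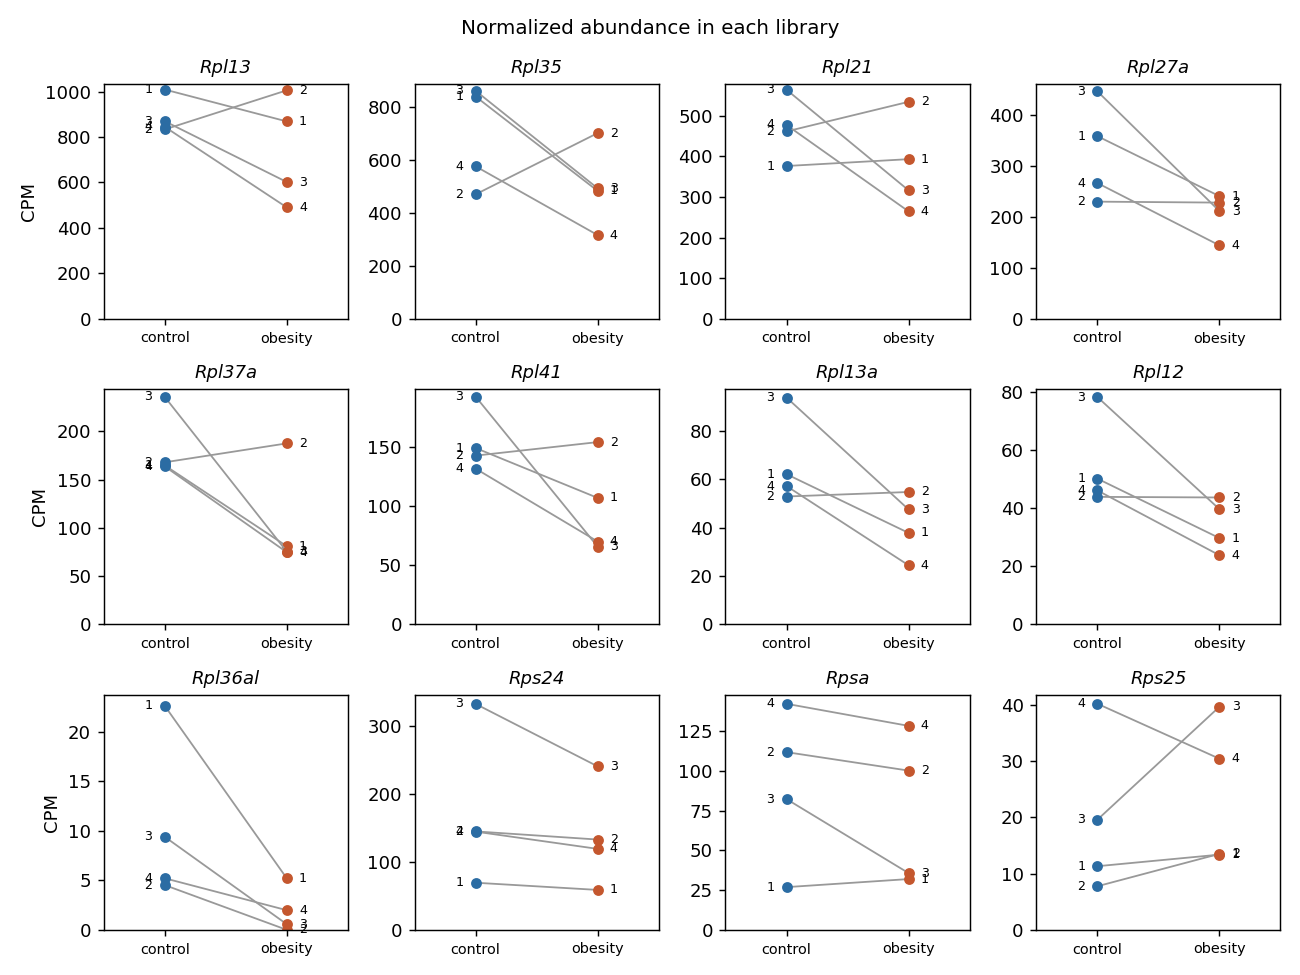
Normalized abundance in CPM of 12 of the genes in each library, with lines joining the libraries of the same number and each axis starting at 0. Obesity 2 is the highest obesity library of Rpl13, Rpl35, Rpl37a and Rpl41 and lies within their control range, while Rps24 and Rpsa keep the order of the numbers in both groups.

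Of the 6 paralogs 4 were below 0 and 2 above. Rpl36al, a copy of Rpl36a, had the lowest log2 fold change of the 55 genes at -2.39 (SE 0.92, edgeR adjusted p 0.904). Its reads numbered 32, 7, 12 and 7 under control and 7, 0, 1 and 3 under obesity, so 32 of its 69 reads were in control 1. Rps10l1 was the most abundant paralog. It was 196, 123, 104 and 112 CPM in control and 108, 126, 33.4 and 58.2 CPM in obesity, a log2 fold change of -0.73 (SE 0.35). Rps4y2, named for the Y-linked relative of Rps4x but placed on chromosome 4 by the table, was 2.83, 11.6, 10.96 and 17.1 CPM in control and 24.5, 23.8, 6.80 and 19.2 CPM in obesity, a log2 fold change of 0.79 (SE 0.55). Rpl7l1 (217 reads), Rpl10l (84) and Rpl22l1 (30) had log2 fold changes of -0.41, 0.05 and -0.99.

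The second comparison was made at single polyadenylation sites. Of the 81 member sites 0 passed an adjusted p of 0.1, against 1 of 73922 sites (0.00135%, edgeR) without the block, and 0 passed with the block, against 4 sites (0.00541%). At an unadjusted p under 0.05, 4 member sites were lower and 0 higher, against 1.41% of all sites lower. With the block 20 were lower and 0 higher, against 3.31% of all sites lower. DESeq2 called 0 member sites, with 3 at an unadjusted p under 0.05. The share of all sites in DESeq2 is not given here, so this count has no background beside it. Of the 81 sites 72 were below 0, against 47.6% of all sites.

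The 3 lower sites with the smallest p were each the single site of their gene (Rnor_6.0). The site of Rpl36al (chr18:1505564-1505573, plus strand) had a control mean of 8.87 ± 6.46 CPM and an obesity mean of 1.54 ± 1.76 CPM (SD, n = 4). That of Rpl27a (chr1:174135265-174135287, plus strand) had 286 ± 94.3 and 173 ± 34.6 CPM, and that of Rpl37a (chr9:80004982-80005004, plus strand) had 162 ± 40.3 and 89.0 ± 49.7 CPM. Scaled over sites, the groups did not overlap for Rpl36al and Rpl27a, nor for the single site of Rpl12. The share of all sites without overlap is not given here, so these separations have no background beside them. For Rpl36al the reads were few, with 7 each in control 2, control 4 and obesity 1. The 3 higher sites with the smallest p, of Rps4y2 (chr4:182746363-182746387, plus strand), Rps19bp1 (chr7:121488667-121488669, minus strand) and Rps25 (chr8:48727662-48727683, plus strand), had unadjusted p-values of 0.257, 0.294 and 0.515 (edgeR).

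Most members had 1 recorded site. In all, 40 of the 55 genes had 1 site, 15 had at least 2 and 9 at least 3, and no member had sites on both strands. No recorded site had fewer than 30 reads in all, and 19 members had fewer than 100 reads. Further sites of such members could therefore be missing. The share of all genes with 1 site is not given here. The site with most reads was the most downstream one in 3 of the 15 genes (Rpl5, Rpl13a and Rpl37) and lay upstream in 12. In Rpl21 it held 97.3% of reads and lay 575 bases upstream of the last site. Rps24 had 81.4% of its reads at a site 2285 bases upstream. Rpl4 had 4 sites close together, with 78.4% of reads 40 bases upstream of the last one. Whether these sites lie in exons, introns or untranslated regions was not analysed here.

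The split of reads over sites did not pass the test for any member. Of the 15 members with at least 2 sites, 0 passed an adjusted p of 0.1 without the block and 0 with it, against 0.0121% of 8276 genes in each fit, and 0 were at an unadjusted p under 0.05, against 1.82% of all genes (edgeR). The 3 smallest p-values were 0.409 for Rpl7l1, 0.462 for Rpl21 and 0.572 for Rps26. In Rpl7l1, a gene of early ribosome assembly, the upstream site held 54.1%, 61.8%, 85.2% and 48.0% of reads in control and 28.0%, 55.6%, 36.0% and 12.5% in obesity. The groups overlapped at obesity 2 alone, and each library had few reads of this gene.

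The main site of Rps24 took 75.4% ± 10.9 of the control reads and 78.6% ± 11.9 of the obesity reads (SD, n = 4). Rpsa was the most uneven. Its most upstream site held 0%, 60.1%, 7.62% and 62.3% of reads in control and 0%, 51.6%, 36.5% and 90.2% in obesity, so neither library numbered 1 had a read there.

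Copies annotated as pseudogenes were also read. Of 14 such copies in the table, 10 had a member of the same root name, and 7 of these 10 were more abundant than that member. Rpl6-ps1 had a mean of 127 CPM against 6.30 CPM for Rpl6, Rpl26-ps2 had 49.8 against 2.40 for Rpl26, and Rpl31l4 had 154 against 62.3 for Rpl31. Rpl5l1 was the most abundant copy at 470.5 CPM. The median log2 fold change of the 14 copies was -0.55, with 12 below 0. At an unadjusted p under 0.05, 2 were lower and 0 higher, against 2.52% of all genes lower. With the block 8 were lower and 0 higher, against 5.83% of all genes lower. Rpl37a-ps3 went from 152 ± 29.96 to 91.6 ± 27.7 CPM (log2 fold change -0.74, edgeR adjusted p 0.904) and Rpl6-ps1 from 165 ± 62.2 to 89.5 ± 55.7 CPM (-0.88). A copy and its parent share sequence, so their reads cannot be told apart with certainty.

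Other lists of genes were then counted in the same fit, where 0 of their genes passed without the block. Beside the counts of these lists at an unadjusted p under 0.05 stand the shares of all genes. Without the block 2.52% of all genes were lower and 2.77% higher, and with the block 5.83% were lower. Nuclear genes of oxidative phosphorylation, the respiratory chain of mitochondria, had a median log2 fold change of -0.35 over 77 genes, with 65 below 0, 9 lower and 1 higher at an unadjusted p under 0.05. With the block 21 were lower and 1 higher, and 1 passed the adjusted threshold, Cox6a1, a subunit of cytochrome c oxidase, which fell from 123 ± 62.4 to 65.1 ± 40.6 CPM (SD, n = 4, edgeR adjusted p 0.094). Proteins of the mitochondrial ribosome had a median of -0.19 (40 of 57 below 0, 1 lower, 0 higher). It was -0.39 without obesity 2, and with the block 2 were lower and 0 higher. Translation factors had -0.13 (31 of 51 below 0, 0 lower, 0 higher). Their median was -0.29 without obesity 2, and with the block 5 were lower and 0 higher.

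Ribosome biogenesis genes had a median of -0.26 (22 of 30 below 0, 2 lower, 0 higher). Nucleolin (Ncl), the most abundant nucleolar protein gene named here, was at 1287, 1692, 546 and 867 CPM in control and 1025, 1490, 395 and 647 CPM in obesity, lower in 4 of 4 pairs. Its unadjusted p was 0.485 without the block and 0.0114 with it (edgeR adjusted p 0.979 and 0.29). Regulators of TOP messages and of mTOR signalling had a median of 0.15 (8 of 22 below 0, 0 lower, 0 higher), or 0.07 without obesity 2. Larp1, which binds the TOP tract, was at 543 ± 94.8 CPM in control and 503 ± 120.0 in obesity, and Mtor at 35.8 ± 8.41 and 29.5 ± 10.2 CPM.

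Among 13 other TOP messages the median was -0.15, with 8 below 0, 2 lower and 0 higher. Tpt1, the translationally controlled tumour protein, was at 81.2 ± 27.6 CPM in control and 32.4 ± 10.4 CPM in obesity. Its edgeR adjusted p was 0.0917 with the block and 0.904 without it. Rack1, a scaffold on the small subunit, was at 2.87 ± 1.01 CPM in control and 5.53 ± 4.35 in obesity (edgeR unadjusted p 0.372). Some genes stand in more than 1 of these lists.

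The groups of genes followed the same libraries. At 10 CPM or more, the median deviation of the members from each gene's own mean was 0.17, 0.06, 0.57 and 0.19 log2 CPM for the control libraries and -0.27, 0.37, -0.25 and -0.52 for the obesity libraries. For nuclear oxidative phosphorylation it was 0.16, 0.04, 0.46 and 0.12 in control and -0.22, 0.22, -0.08 and -0.35 in obesity. All genes stayed between 0.01 and 0.03 in every library. Both groups of genes were highest in control 3 and lowest in obesity 4, with obesity 2 on the side of the controls.

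**Figure D5:**
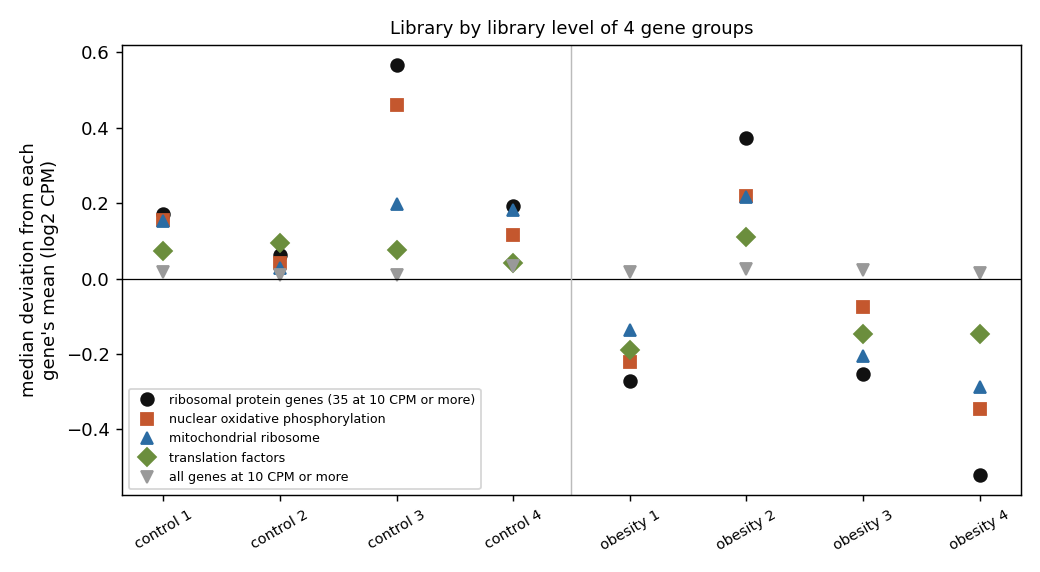
Median deviation of 4 gene groups and of all genes at 10 CPM or more from each gene's mean over the 8 libraries, in log2 CPM, with 1 position per library. The ribosomal protein genes run from 0.57 in control 3 to -0.52 in obesity 4, the other 3 groups lie on the same side of 0 in each library, and all genes lie near 0.

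The 29 members with a C or T run at the annotated start had a median log2 fold change of -0.36, with 25 below 0, and the 13 without had -0.41, with 12 below 0. Their median abundance was 39.8 and 19.3 CPM.

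Markers of cell types were read beside these results. Of 12 oligodendrocyte markers 11 were measured, and all 11 were below 0, with a median log2 fold change of -0.18 and summed levels of 17431 to 22345 CPM in control and 13558 to 21092 in obesity. Neuronal markers (11 of 12) had a median of -0.13 (-0.25 without obesity 2) and summed levels of 7666 to 10315 and 6594 to 9459 CPM. Astrocyte markers (10 of 10) had -0.15, with 4845 to 7003 and 4323 to 6239 CPM, and microglial markers (6 of 10) had -0.01 (-0.40 without obesity 2), with 196 to 257 and 115 to 237 CPM. Endothelial markers (4 of 8) summed to 51.3 to 92.6 and 48.5 to 114 CPM and choroid plexus markers (2 of 7) to 30.5 to 58.8 and 21.5 to 140.1 CPM. Anterior pituitary markers (4 of 7) summed to 39.1 to 89.7 and 8.59 to 183 CPM, and red blood cell markers (3 of 6) to 40.7 to 59.5 and 20.8 to 88.6 CPM. Median log2 fold changes were -0.39 for endothelial, 2.33 for choroid plexus, 0.70 for anterior pituitary and 0.15 for red blood cell markers. Without obesity 2 these medians were -0.71, 2.57, -1.11 and -0.05 in the same order. The groups overlapped for every list, and the part of cell composition in the result was not tested.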

How the data were processed

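Hypothalamic WTTS-seq libraries of 8 rats were analysed, 4 per group. The deposited table holds the raw count of mapped reads at each polyadenylation site, and its values are not normalized. Per the labels and the submitters' processing notes, reads were aligned to Rnor_6.0 with Bowtie2 2.2.3. How reads were clustered into sites, filtered and assigned to genes is not given in the sources used here. The lowest site total was 30 reads, and a closing line holding 1 library total was left out. Mapped reads without molecular identifiers are not independent molecules, and intervals cover counting error only.

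Counts were summed per gene ID over its sites. Differential abundance was tested with edgeR 4.0.16 (TMM, robust quasi-likelihood test, no filter, Benjamini-Hochberg over all genes or sites, threshold 0.1) in R 4.3.3, obesity minus control, and site usage with diffSpliceDGE. DESeq2 1.42.0 was an alternative. Each fit was tested on simulated data. Named were the 3 most abundant genes of each subunit, the 5 lower and 5 higher genes and 3 lower and 3 higher sites (mean of 5 CPM or more) with the smallest p, the 3 smallest usage p-values and the paralogs; Rpl12, Rpl34 and genes that passed another fit were added after their values were seen. Same-numbered libraries of the groups deviated together over 8341 genes (correlations 0.395, 0.325, 0.272 and 0.381, against -0.228 to 0.0936 for other couples), so the replicate number was also fitted as a block. The members and lists were chosen with earlier results of these data known. Some genes are not reported here by name.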

Additional observations from a re-analysis of the deposited data

Results flagged for a closer look

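In 112 checks for 1 library standing apart from the other 3 of its group (Dixon's criterion), 8 were positive, and chance alone would give about 6. Rpl37a was at 236 CPM in control library 3, against 164 to 168 CPM in the other control libraries, and at 187 CPM in obesity library 2, against 74.7 to 80.9 CPM in the other obesity libraries. Rpl14 was at 230.1 CPM in control library 3, against 77.5 to 101.05 CPM in the others. Obesity library 2 also stood apart for 2 genes of low abundance, Rpl24 (3.18 CPM against 0.566 to 0.742) and Rps23 (4.77 CPM against 0 to 0.566). Control library 1 stood apart for Rpl22l1 (9.19 CPM against 1.49 to 1.94) and Rpl26 (7.77 CPM against 0.646 to 1.57). Rpl26 was at 8.49 CPM in obesity library 3, from 15 reads, and at 0 in the other 3 obesity libraries.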

How the results depend on the processing

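Without the block, 0 members passed at the gene level under any alternative: other scaling, a filter on low counts, the dominant strand, the most abundant site, DESeq2, or any library left out. The dominant strand left the read counts of the members themselves unchanged, because no member had sites on both strands. With the replicate block the count was 0, against 0.122% of all genes. It rose to 14 with pair 2 left out, against 2.66% of all genes lower. With DESeq2 and the block it was 3, against 0.694% of all genes lower. The median log2 fold change of the members was -0.51 with the replicate block and -0.77 with that block and pair 2 left out, and lay between -0.65 and -0.26 with a library left out. Members lower at an unadjusted p under 0.05 numbered 7, against 2.52% of all genes, and 2 by the most abundant site of each gene. With a library left out they numbered 2 to 19 (19 without obesity 2, 3 without control 3, 2 without obesity 4). Of all genes, 5.72% were lower without obesity 2. The shares of all genes with another library left out, or by the most abundant site, are not given here. Those counts therefore have no background beside them. The share of reads differed by -0.195 to -0.0928 percentage points with a library left out. At single sites and for site usage 0 members passed in every fit. Direction turned only for Rps26 (-0.18 by its most abundant site, and -0.043 to 0.69 with a library left out), Rpsa (0.21 by its most abundant site, and -0.71 to 0.0041 with a library left out), Rps25 (-0.032 to 0.93) and Rps24 (-0.74 to 0.21). The cause was not tested.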
